A study of Mus musculus with 12 samples.

Results

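Loss of 1 Tet2 copy on top of an activated Nras allele was examined in hematopoietic stem cells (HSCs) of the mouse, by setting compound mutant libraries (NrasG12D/+;Tet2+/-) against libraries of the Nras mutant alone (NrasG12D/+). The comparison held 6 of the 12 libraries of the series, 3 per genotype, and 13962 of the 18546 genes in the table, namely those with at least 1 RPKM (a read count divided by gene length and sequencing depth) in at least 3 of the 6 libraries. Bone marrow was taken from C57BL/6 animals 10 to 12 weeks old, and cells were sorted in the SLAM gate, which takes lineage-negative, Sca1+ and cKit+ cells with CD150 and without CD48. Both genotypes compared carry NrasG12D/+, a heterozygous substitution that keeps the Ras protein in its active form, and differ in the labels only by Tet2+/-, in which 1 functional copy of Tet2 remains. Tet2+/- and wild-type libraries, 3 of each, give the difference with the same Tet2 allele on the wild-type background. The labels state neither how the Nras allele was switched on nor whether cells of several mice were pooled, so p-values measure the spread between these libraries.

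Tet2 is a dioxygenase that oxidizes the methyl group of 5-methylcytosine at CpG sites, the first step of active DNA demethylation, and its loss favours self-renewal of HSCs over differentiation. Nras is a small GTPase that passes signals from cytokine receptors such as Kit to the Raf, Mek and Erk kinases and to the PI3 kinase pathway. Lesions in both genes occur together in human chronic myelomonocytic leukemia, which is the setting such compound mutant mice are used to model.

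The labelled cell type was checked first. All 7 HSC markers examined were present in both genotypes. Kit, the stem cell factor receptor, ranged from 76.4 to 85.9 RPKM in compound mutants and from 66.3 to 86.0 in NrasG12D/+ mutants. The transcription factor Hlf ranged from 44.8 to 52.4 RPKM in compound mutants and from 38.6 to 53 in NrasG12D/+ mutants. Slamf1, which encodes CD150, ranged from 3.17 to 6.46 RPKM in compound mutants and from 5.26 to 7.56 in NrasG12D/+ mutants. Cd48, whose protein the gate excludes, had 0, 0 and 2 reads in compound mutants and 0, 0 and 98 in NrasG12D/+ mutants. Library 1 of each of these genotypes had almost no Xist and expressed Y-linked genes, and libraries 2 and 3 had Xist at 212 to 251 RPKM, so each side held 1 male and 2 female libraries. Sex was not balanced on the wild-type background, where 2 of 3 Tet2+/- libraries and 1 of 3 wild-type libraries were male, and its part in Tet2+/- minus wild type and in the interaction was not tested. In bulk libraries, fewer cells of a type and less RNA per cell cannot be told apart. Reads in genes numbered 20935368, 33941484 and 29076083 in compound mutants and 29789868, 28750542 and 36890942 in NrasG12D/+ mutants.

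Libraries differed along a second axis that did not follow genotype. The 22 immediate early genes in the table, which are transcribed within minutes of a stimulus or of cell handling, summed to 768 to 985 RPKM in the 4 libraries numbered 2, against 120 to 399 RPKM in the 8 other libraries. In compound mutants the sums were 156, 768 and 222 RPKM, and in NrasG12D/+ mutants 120, 873 and 302 RPKM. Library 2 held the highest value for 20 of the 22 genes among compound libraries, for 20 among NrasG12D/+ libraries and for 18 in both. Fosb, an AP-1 subunit, stood at 0.406, 50.4 and 4.79 RPKM in compound mutants against 3.13, 43.0 and 9.88 RPKM in NrasG12D/+ mutants. Nr4a1, an orphan nuclear receptor, stood at 0.634, 44.5 and 1.04 RPKM against 3.30, 42.2 and 2.92 RPKM, and both genes were highest in library 2 of each genotype. Socs3, a feedback inhibitor of cytokine signaling, had 0 reads and then 1.4 and 1.33 RPKM in compound mutants, against 0.613, 2.66 and 0.671 RPKM in NrasG12D/+ mutants. The spread between libraries of 1 genotype was thus far wider than the gap between genotypes for these genes, and the log2 difference of Fos was -0.08 (95% interval -3.49 to 3.33). Without the 4 libraries numbered 2, the comparison still called 0 genes.

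**Figure D1:**
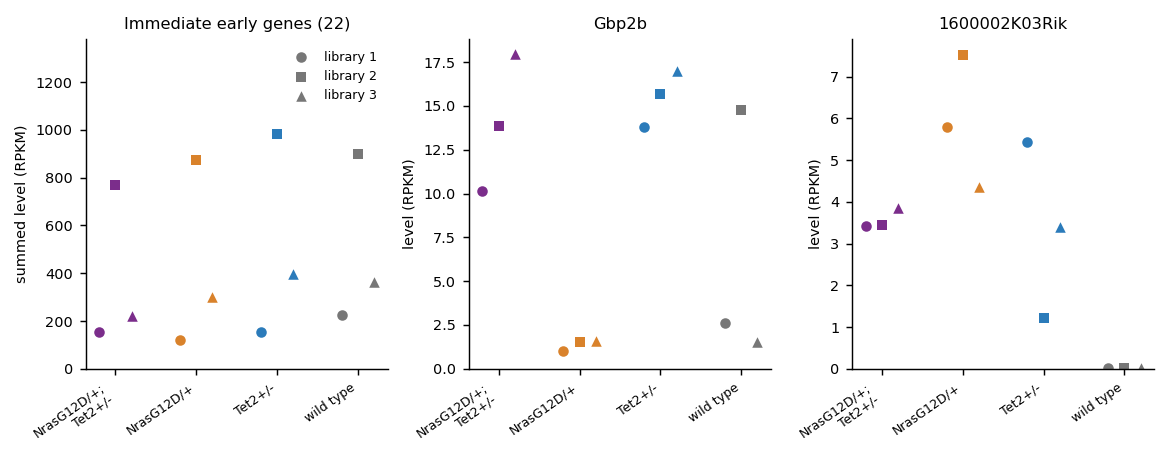
Summed level of the 22 immediate early genes, and levels of Gbp2b and 1600002K03Rik, in RPKM, in each of the 12 libraries (1 point each, shape giving the library number) of the 4 genotypes. The squares, libraries numbered 2, lie at 768 to 985 RPKM in the first panel, and Gbp2b lies at 10.2 to 18.0 RPKM in compound mutants, against 1.01 to 1.57 RPKM in NrasG12D/+ mutants.

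Across the transcriptome, 0 genes were higher (0%) and 0 were lower (0%) in compound mutants than in NrasG12D/+ mutants at an adjusted p under 0.05, by limma's moderated test with Benjamini-Hochberg adjustment over all 13962 genes. The smallest adjusted p was 0.360. At an unadjusted p under 0.05 stood 555 genes (3.98%), of which 258 were higher (1.85%) and 297 lower (2.13%). Voom, a weighted form of the same test on whole reads recovered from the table, also passed 0 genes and put 665 at an unadjusted p under 0.05. In 1220 genes (8.74%) the 3 libraries of 1 genotype all lay above the 3 of the other, 605 with compound mutants above (4.33%) and 615 with them below (4.40%). The log2 difference, compound minus NrasG12D/+, was above 0 in 6853 genes (49.1%), and its median was -0.01.

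The count moved with single libraries. It was 10 without NrasG12D/+ library 3, with 9 genes higher and 1 lower, and 5, all lower, without compound library 3. It was 1 without compound library 1, wild-type library 1 or wild-type library 2, and 0 without any other library. A fit on the 6 libraries alone called 2 genes, the small nucleolar RNAs Gm24610 and Gm22516, and a fit without a variance trend called 2 others, the small nuclear RNA Gm24378 and the pseudogene Gm15371. These 4 were chosen after their values were seen. Among the 6 libraries, each reached the minimum of 1 RPKM only in the 3 of the genotype where it was high. Genes of this kind enter the test through 1 genotype, so their read counts are a description. Of the 13962 genes tested, 14 had 0 reads in all 3 compound libraries and 9 in all 3 NrasG12D/+ libraries. Gm24610 had 96, 78 and 94 reads in compound mutants and 0 reads in every NrasG12D/+ library, while wild-type libraries had 0, 23 and 80 and Tet2+/- libraries 0. Gm24378 had 0 reads in every compound library and 152, 38 and 23 in NrasG12D/+ mutants. A count of 0 allows up to 3 reads in a library. Most genes called without NrasG12D/+ library 3 were at 0 reads in both remaining libraries: Endog, a mitochondrial nuclease, stood at 5.79, 4.37 and 0.816 RPKM in compound mutants, against 0 reads in NrasG12D/+ libraries 1 and 2 and 1.66 RPKM in library 3.

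What the comparison could resolve depended on abundance. Over all genes the median size of the log2 difference was 0.25, and the 95% interval lay wholly within -1 and 1 for 6343 genes (45.4%). Of the 2308 genes averaging at least 16 RPKM over the 12 libraries, 1967 (85.2%) had such an interval, and 895 (38.8%) had one within -0.5 and 0.5. Of the 5572 genes at 4 to 16 RPKM, 3429 (61.5%) had an interval within -1 and 1, and of the 4738 at 1 to 4 RPKM, 947 (20%) did. None of the 1344 genes under 1 RPKM did (0 genes), and these held 876 of the 1959 differences larger than 1 in size, against 26 at 16 RPKM or more. For the more abundant transcripts a doubling or halving in compound mutants therefore fell outside most intervals, while for scarce ones it fell inside. Correlations between libraries, over genes at 16 RPKM or more, ran from 0.77 to 0.94 for pairs of different genotype and from 0.78 to 0.90 for pairs of the same genotype; all these pairs share the same gene set and table scaling.

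**Figure D2:**
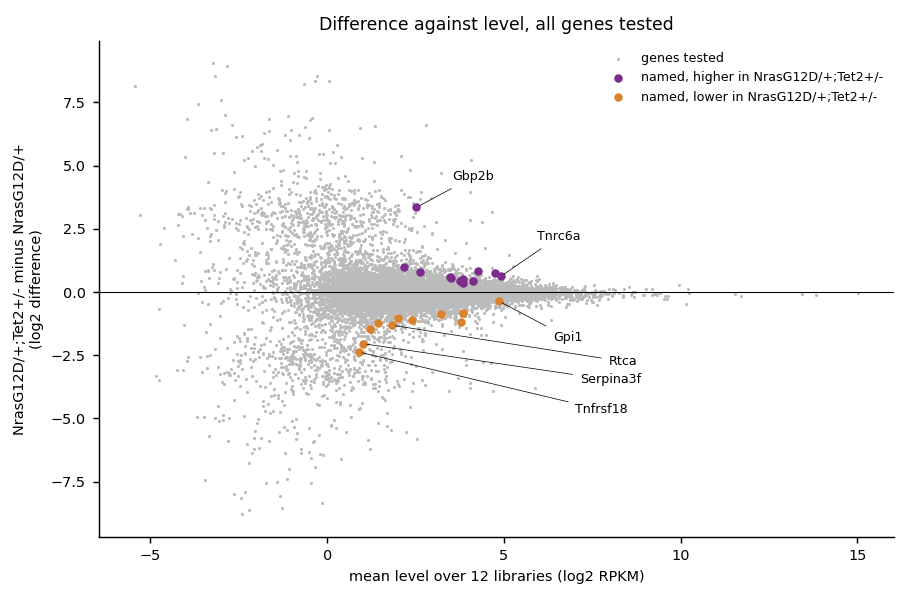
Log2 difference, compound minus NrasG12D/+ mutants, of each of the 13962 genes tested, against its mean log2 RPKM over 12 libraries; coloured points are the genes named in each direction. The cloud narrows as level rises, and 26 genes at 16 RPKM or more differ by over 1 in size.

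Neither targeted gene differed beyond the spread. Tet2 (chromosome 3, 133463679 to 133545139, minus strand) stood at 4.50, 5.68 and 4.76 RPKM in compound mutants against 7.03, 5.27 and 4.84 RPKM in NrasG12D/+ mutants, and the groups overlapped. Its log2 difference was -0.19 with a 95% interval of -0.62 to 0.25, which does not reach -1, the value for loss of 1 of 2 equally transcribed copies. On the wild-type background Tet2+/- libraries held 5.23, 4.09 and 4.82 RPKM against 4.93, 4.94 and 4.98 RPKM in wild type. Nras (chromosome 3, 103058285 to 103067914, plus strand) stood at 6.83, 5.10 and 6.78 RPKM in compound mutants against 5.99, 4.76 and 6.47 RPKM in NrasG12D/+ mutants (log2 difference 0.12, interval -0.32 to 0.56). A level summed over the gene does not separate mutant from intact transcripts, so neither value checks the labels.

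Since no gene passed, the genes named are those with the smallest unadjusted p among genes whose 2 groups of 3 libraries did not overlap, 12 in each direction. Their adjusted p lay at 0.635 or above by limma, so none of the 24 passed. The p and the lack of overlap chose them, and neither is evidence for them.

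Gbp2b, an interferon-inducible guanylate-binding GTPase of host defence, had the largest difference of the 12 higher ones. It stood at 10.2, 13.9 and 18.0 RPKM in compound mutants against 1.01, 1.5 and 1.57 RPKM in NrasG12D/+ mutants. The log2 difference was 3.35 ± 0.66 (SE), or 10.2-fold, with an adjusted p of 0.966 by limma. The 3 Tet2+/- libraries, at 13.8, 15.7 and 17.0 RPKM, lay in the compound range. Wild-type libraries were split, at 2.60, 14.8 and 1.55 RPKM, so all 6 libraries with the Tet2 allele were above 10 RPKM and 1 of the 6 without it was too. Wild-type library 2 enters the shared estimate of spread, and without it Gbp2b passed the threshold (adjusted p = 0.0158 by limma). That was the only 1 of 25 alternatives in which Gbp2b passed. It did not pass in the fit on the 6 compound and NrasG12D/+ libraries alone, which holds no wild-type library, nor with voom. The gene lies on chromosome 3 at 142594847 to 142619179, 9.05 Mb from Tet2. Other Gbp genes had other values. On chromosome 3, Gbp2 stood at 29.9, 26.9 and 30.7 RPKM against 20.9, 44.7 and 22.2 RPKM, Gbp3 had a log2 difference of -0.33 ± 0.26, Gbp5 of -0.06 ± 0.19 and Gbp7 of 0.06 ± 0.10. On chromosome 5, Gbp4 and Gbp9 had log2 differences of -1.18 ± 0.47 and -0.74 ± 0.27, with every compound library below every NrasG12D/+ library. The other tested Gbp genes there had groups that overlapped: Gbp6 at -0.44 ± 0.81, Gbp8 at 0.16 ± 0.70 and Gbp10 at -0.66 ± 0.69. The annotated spans of Gbp4, Gbp8 and Gbp9 overlap on the chromosome. Gbp genes are near-identical in part, and how the authors' counting split shared reads is not given in the sources used here.

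CpG sites are the substrate of Tet2, so the bases before the start of Gbp2b and of 2 genes from the lower set, Rtca and Smug1, are shown as context for their levels; no methylation was measured here. Each line gives the 250 bases up to the RefSeq start, on the gene's strand, from the GRCm38.p6 table. Capitals mark every CpG and, in Gbp2b alone, the match to the motif named below.
Gbp2b promoter: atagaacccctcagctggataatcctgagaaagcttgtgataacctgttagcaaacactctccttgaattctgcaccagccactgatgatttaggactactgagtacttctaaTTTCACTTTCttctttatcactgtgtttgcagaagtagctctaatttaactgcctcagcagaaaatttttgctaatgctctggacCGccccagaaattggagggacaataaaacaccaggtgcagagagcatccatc
Rtca promoter: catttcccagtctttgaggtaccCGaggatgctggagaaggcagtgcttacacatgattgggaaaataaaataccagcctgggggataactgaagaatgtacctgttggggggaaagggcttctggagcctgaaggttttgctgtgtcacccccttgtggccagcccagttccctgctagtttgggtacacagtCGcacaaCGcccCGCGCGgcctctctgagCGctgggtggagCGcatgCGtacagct
Smug1 promoter: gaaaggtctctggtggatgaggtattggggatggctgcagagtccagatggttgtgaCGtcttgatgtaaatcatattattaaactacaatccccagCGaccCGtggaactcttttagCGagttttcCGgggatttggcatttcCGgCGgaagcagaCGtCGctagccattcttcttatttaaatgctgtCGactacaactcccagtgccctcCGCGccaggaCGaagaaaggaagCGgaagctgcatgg

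The windows are chr3:142594597-142594846 on the plus strand for Gbp2b, chr3:116508176-116508425 on the minus strand for Rtca and chr15:103163285-103163534 on the minus strand for Smug1. In GENCODE, Rtca starts at 116508208 and Smug1 at 103167092, both on the minus strand. The Rtca window thus overlaps the GENCODE gene and the Smug1 window lies inside it, and windows at those starts were not read. The 3 windows shown hold 1, 9 and 14 CpG, beside a median of 6 over the 27025 windows of the table, 91.7% of which hold at least 1. The interferon-stimulated response element, taken as GAAA, 2 bases of any kind and GAAA again, was searched on both strands. It occurs 1 time in the Gbp2b window, on the strand opposite to the printed one, and in neither of the other 2, and 3.04% of all windows hold it. TTCNNNGAA, the core of a STAT site, was in none of the 3 windows on either strand and in 7.18% of all windows. A match is a description of the letters. Of the genes tested, 59.1% had a window, below the 80% needed, so a breakdown of the whole comparison by CpG content was void.

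The other 11 named higher genes differed by less. Tnrc6a, a GW182 protein that works with Argonaute in microRNA silencing, stood at 42.6, 43.7 and 30.7 RPKM in compound mutants against 29.3, 21.1 and 24.8 RPKM in NrasG12D/+ mutants (log2 difference 0.63 ± 0.15). Cdk7, the kinase of TFIIH that also activates cell cycle kinases, stood at 9.56, 6.23 and 7.80 RPKM against 5.18, 3.98 and 4.41 RPKM (0.78 ± 0.19). Brms1, a subunit of Sin3 histone deacetylase complexes, stood at 24.0, 30.3 and 25.8 RPKM against 10.9, 18.9 and 16 RPKM (0.84 ± 0.21). The lowest compound library was close above the highest NrasG12D/+ library in Tnrc6a and farther from it in Brms1. Csgalnact1, which starts chondroitin sulfate chains, differed by 0.60 ± 0.16 on the log2 scale. Fbxo11, a substrate receptor of an SCF ubiquitin ligase, differed by 0.43 ± 0.12, and Mcm9, a helicase of DNA repair, by 0.54 ± 0.15. Ttc5, a cofactor of the acetyltransferase p300, differed by 0.75 ± 0.22, and the zinc finger genes Zfp277 and Zfp518a by 1.0 ± 0.30 and 0.50 ± 0.14. Uhrf1bp1l and Fgfr1op2 differed by 0.44 ± 0.13 and 0.34 ± 0.10.

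Among the 12 named lower genes, Rtca, an RNA 3′-phosphate cyclase, had the smallest p. It stood at 1.75, 2.13 and 1.85 RPKM in compound mutants against 5.14, 4.69 and 4.39 RPKM in NrasG12D/+ mutants, a log2 difference of -1.31 ± 0.22 (unadjusted p = 0.000136, adjusted p = 0.635 by limma). Tet2+/- libraries held 3.98, 4.24 and 3.99 RPKM and wild-type libraries 5.47, 4.29 and 3.48 RPKM, so every one of the 9 libraries outside the compound genotype was above 3 RPKM. Rtca also lies on chromosome 3, at 116488963 to 116508208. Adat1, a deaminase that makes inosine in transfer RNA, stood at 2.84, 2.59 and 2.04 RPKM against 5.27, 5.31 and 4.58 RPKM (-1.03 ± 0.22). Smug1, a DNA glycosylase that removes uracil and 5-hydroxymethyluracil, stood at 2.15, 2.0 and 1.52 RPKM against 4.08, 4.44 and 4.49 RPKM (-1.21 ± 0.32). Wild-type libraries held Smug1 at 3.05, 2.74 and 1.64 RPKM, between the 2 genotypes and overlapping the compound range. Clp1, an RNA kinase of transfer RNA splicing and messenger RNA 3′ processing, stood at 1.17, 1.56 and 2.04 RPKM against 4.58, 4.76 and 3.73 RPKM (-1.48 ± 0.39).

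The largest of the lower differences were in scarce transcripts. Tnfrsf18, the TNF receptor family member GITR, stood at 1.47, 0.620 and 0.398 RPKM in compound mutants against 5.24, 4.13 and 2.31 RPKM in NrasG12D/+ mutants (-2.37 ± 0.56). Serpina3f, a serine protease inhibitor, stood at 1.63, 0.515 and 1.08 RPKM against 3.67, 4.51 and 3.85 RPKM (-2.05 ± 0.55). The smallest and most precise was that of Gpi1, phosphoglucose isomerase of glycolysis, at 25.5, 24.2 and 24.7 RPKM against 33.1, 32.4 and 30.1 RPKM (-0.36 ± 0.09). Ndufc2, a subunit of respiratory complex I, stood at 5.75, 6.31 and 14.6 RPKM against 15.3, 24.5 and 17.4 RPKM (-1.21 ± 0.33), with compound library 3 close to the NrasG12D/+ libraries. Klhl28, a Kelch-like protein, differed by -1.11 ± 0.28, Fkbp9, a prolyl isomerase of the endoplasmic reticulum, by -0.84 ± 0.22, and Pctp, a phosphatidylcholine transfer protein, by -0.85 ± 0.23.

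**Figure D3:**
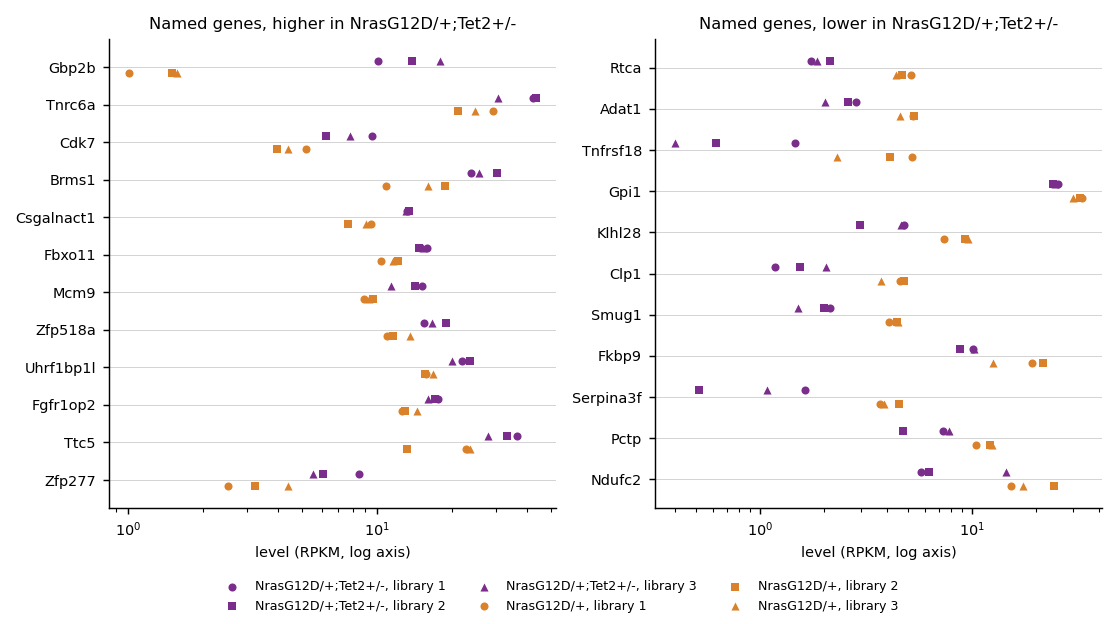
Level in RPKM (log axis) of 12 higher and 11 lower genes, in each compound library (purple, upper row of a gene) and each NrasG12D/+ library (orange, lower row). Groups do not overlap by the rule that chose the genes; Gbp2b is the widest gap on the left, and on the right Ndufc2 shows 1 compound library, at 14.6 RPKM, near the NrasG12D/+ libraries.

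The same 24 genes were then read on the wild-type background. None of its 6 libraries enters the compound difference itself, but all 6 enter the estimate of spread behind the p that ranked the genes, so the reading is not independent of the choice. Tet2+/- minus wild type had the same sign in 18 of the 24, 8 of the 12 higher and 10 of the 12 lower ones, beside 7240 of all 13962 genes (51.9%). The groups did not overlap in 3 of the 24, beside 1322 of all genes (9.47%). At an unadjusted p under 0.05 on this background stood 471 genes (3.37%), 254 higher (1.82%) and 217 lower (1.55%), and limma passed 1 (0.00716%). That gene, 1600002K03Rik, is also the one called by the interaction below, and both calls rest on the same wild-type libraries. In Tnrc6a the Tet2+/- libraries lay above wild type, with a log2 difference of 0.13 ± 0.15. In Fgfr1op2 and Zfp277 they lay below it, at -0.27 ± 0.10 and -0.79 ± 0.30, opposite in sign to the compound difference. Gbp2b was the 1 gene of the 24 with a log2 difference over 1 there (1.98 ± 0.66, adjusted p = 0.990 by limma). For Rtca the difference was -0.09 ± 0.22, for Adat1 0.02 ± 0.22 and for Gpi1 -0.02 ± 0.09. Over all genes the Spearman correlation of the 2 differences was 0.03, and over genes at 16 RPKM or more 0.08, with 55.5% of signs shared; the genes share libraries and are not independent replicates.

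**Figure D4:**
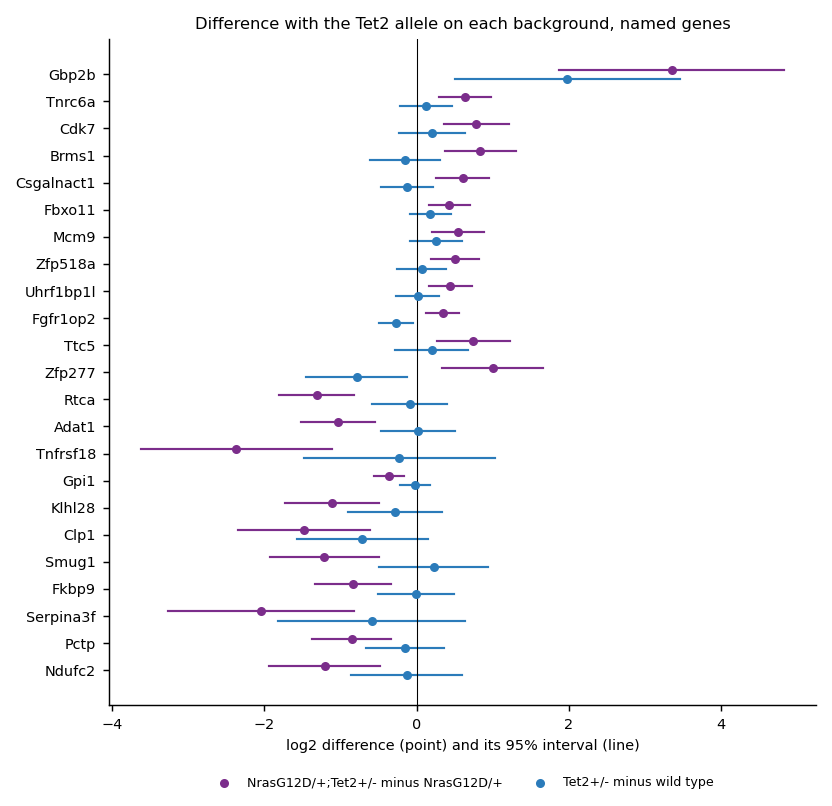
Log2 difference and 95% interval with the Tet2 allele on the Nras mutant background (purple) and on the wild-type background (blue), for 23 of these genes. Purple intervals exclude 0 because of how the genes were chosen, while 20 of the 23 have overlapping Tet2+/- and wild-type libraries.

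The interaction, the compound difference minus the Tet2+/- difference, tests whether the 2 backgrounds differed. It called 0 genes higher (0%) and 1 gene lower (0.00716%), a call lost with log2(RPKM + 0.5), quantile normalization, a replicate block over all 12 libraries and voom, and 456 genes stood at an unadjusted p under 0.05 (3.27%), 199 higher (1.43%) and 257 lower (1.84%). The gene called, 1600002K03Rik, an open reading frame on chromosome 10 at 80172944 to 80175146 chosen after its values were seen, is described with the results for a closer look. The 5 named genes with the smallest p in the lower direction were Rwdd2b, Zfp820, Csnk2a2, Rltpr and Fam69b, and in the higher direction Fgfr1op2, Zfp277, Asrgl1, Daam1 and Tox4. None of these 10 passed. Rwdd2b stood at 6.17, 4.92 and 5.27 RPKM in compound mutants against 5.89, 10.8 and 8.18 RPKM in NrasG12D/+ mutants, and at 7.43, 7.79 and 8.57 RPKM in Tet2+/- mutants against 3.02, 4.47 and 3.52 RPKM in wild type (interaction -1.70 ± 0.34, adjusted p = 0.900 by limma). Csnk2a2, a catalytic subunit of casein kinase 2, had differences of -0.71 ± 0.21 on the Nras background and 0.51 ± 0.21 on the wild-type one. Daam1, a formin of actin assembly, had 0.72 ± 0.27 and -0.59 ± 0.27, and Asrgl1, an asparaginase, 0.47 ± 0.20 and -0.57 ± 0.20. In these 3 genes the difference had opposite signs on the 2 backgrounds. Choosing genes by the smallest interaction p favours opposite signs, so the signs are not evidence for these genes.

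Genes of 33 lists were read next, for pathways and cell types named here by role. Of 862 distinct genes listed, 773 were in the table and 696 were tested, and 0 of the 696 passed. Medians lay between -0.1 and 0.1 in 20 lists, above 0 in 10 and below 0 in 23, beside a median of -0.01 over all genes. Shares above 0 are to be read against 49.1% of all genes.

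In the machinery of cytosine methylation and demethylation, 7 of 21 tested genes had a difference above 0 and 14 below, with a median of -0.12. Idh1, the cytosolic isocitrate dehydrogenase that makes the Tet2 cofactor α-ketoglutarate, stood at 3.97, 3.57 and 3.82 RPKM in compound mutants against 2.02, 1.83 and 3.23 RPKM in NrasG12D/+ mutants (0.73, interval -0.20 to 1.66). Idh2, the mitochondrial enzyme, stood at 19.8, 17.5 and 20.1 RPKM against 21.3, 20.7 and 21.2 RPKM (-0.15, -0.41 to 0.12). Tdg, which excises the oxidized bases that Tet enzymes make, had 0.63 (-0.45 to 1.71), and Uhrf2 -0.19 (-0.45 to 0.07). In 17 of the 21 genes the interval lay within -1 and 1.

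Among 23 Polycomb and other chromatin regulators mutated or used in leukemia, 14 were above 0 and the median was 0.05. Asxl1, which partners the deubiquitinase Bap1, stood at 25.3, 31.0 and 25.7 RPKM in compound mutants against 25.0, 20.9 and 24.2 RPKM in NrasG12D/+ mutants (0.22, interval -0.04 to 0.48). Bmi1, a Polycomb subunit needed for HSC self-renewal, stood at 6.00, 6.32 and 5.96 RPKM against 4.71, 5.12 and 5.10 RPKM (0.29, -0.14 to 0.72). Cbx2, a chromodomain reader of Polycomb marks, stood at 3.86, 1.48 and 4.08 RPKM against 6.07, 5.87 and 4.87 RPKM (-0.97, -1.74 to -0.20), the 1 member of 23 with an unadjusted p under 0.05, beside 3.98% of all genes. Groups did not overlap in 8 members, 5 above and 3 below, these 3 genes among them, beside 8.74% of all genes.

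Components of Ras to Erk signaling were split evenly, 14 of 28 above 0, with a median of 0.01. Map2k1, which encodes the kinase Mek1, stood at 3.95, 4.85 and 7.96 RPKM in compound mutants against 11.1, 8.07 and 9.71 RPKM in NrasG12D/+ mutants (-0.84, interval -1.44 to -0.24). Gab2, an adaptor that recruits PI3 kinase and Shp2 to cytokine receptors, stood at 16.1, 13.2 and 16.7 RPKM against 11.8, 11.4 and 10.6 RPKM (0.44, 0.06 to 0.83). These were the 2 of the 28 with groups that did not overlap, a share near the 8.74% of all genes. Hras, another Ras gene, was scarce, at 2.32, 1.18 and 1.35 RPKM against 0.142, 0.847 and 1.30 RPKM (1.52, -0.34 to 3.38).

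Genes that report Erk output, among them its feedback phosphatases and Sprouty inhibitors, had 5 of 16 tested members above 0 and a median of -0.27. Dusp7, a phosphatase that switches off Erk, stood at 3.49, 1.69 and 1.95 RPKM in compound mutants against 4.46, 3.65 and 3.56 RPKM in NrasG12D/+ mutants (-0.78, interval -1.65 to 0.09). Spry1, a feedback inhibitor of receptor tyrosine kinase signaling, had -0.56 (-1.39 to 0.27), and Myc -0.37 (-0.89 to 0.15). Elk3, an Ets factor phosphorylated by Erk, had 0.39 (-0.04 to 0.82). The list sum was 175, 180 and 175 RPKM in compound mutants and 175, 222 and 172 RPKM in NrasG12D/+ mutants, with NrasG12D/+ library 2, the one with high immediate early genes, the highest. Without the 4 libraries numbered 2 the median was -0.06. The part of that library in the median was not tested further.

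Cell cycle lists had medians near 0. G2/M genes had 15 of 36 above 0 and a median of -0.02, and DNA replication genes 18 of 37 and -0.01. Ube2c, of the ubiquitin machinery of mitotic exit, had 0 reads in compound libraries 1 and 2 and 1.51 RPKM in library 3, against 2.92, 1.04 and 1.48 RPKM in NrasG12D/+ mutants. Ndc80, of the kinetochore, stood at 8.53, 10.8 and 14.1 RPKM in compound mutants against 17.1, 16.9 and 15.9 RPKM in NrasG12D/+ mutants (-0.60, interval -1.19 to -0.01). Mcm3, of the replicative helicase, stood at 27.0, 25.0 and 28.8 RPKM against 29.3, 43.3 and 34.4 RPKM (-0.39, -0.73 to -0.05). Cdc45, a partner of that helicase, had -0.54 (-1.08 to -0.01). Of 23 cell cycle inhibitors and quiescence genes, 9 were above 0, with a median of -0.05. Tob1, an antiproliferative protein, stood at 8.54, 7.02 and 8.02 RPKM against 0.706, 5.02 and 4.96 RPKM (1.59, 0.08 to 3.1), with NrasG12D/+ library 1 far below the others. Rbl2, the pocket protein p130, had 0.28 (-0.01 to 0.57).

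Of 40 HSC identity genes all 40 were tested, 18 were above 0, the median was -0.02, and 31 had an interval within -1 and 1. Summed levels were 1100, 1219 and 1095 RPKM in compound mutants and 1100, 1152 and 1094 RPKM in NrasG12D/+ mutants. Sult1a1, a sulfotransferase, had a log2 difference of 0.57 (interval -0.13 to 1.28), Cd34 of 0.22 (-0.07 to 0.51), the calcium channel Trpc6 of 0.47 (-0.17 to 1.11) and Kit of 0.16 (-0.07 to 0.39). These members were picked by small p and all lay above 0, whereas 22 of the 40 lay below 0, the lowest at -0.50. Hox, Meis and other genes of leukemic self-renewal had 14 of 22 above 0 and a median of 0.15. Mn1, a transcriptional cofactor that drives myeloid leukemia in mice, stood at 4.48, 3.39 and 4.28 RPKM against 2.40, 2.68 and 2.75 RPKM (0.63, 0.06 to 1.19). Hoxa4 stood at 3.24, 4.51 and 5.48 RPKM against 3.6, 1.91 and 1.94 RPKM (0.86, 0.02 to 1.71), with overlap, Bcl11a, a lymphoid and stem cell factor, had 0.19 (-0.05 to 0.43), and Meis1 had 0.17 (-0.08 to 0.42).

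Lineage markers were read both as priming and as traces of other cells in the sort. Of 18 granulocyte-monocyte genes measured, 6 stayed under 1 RPKM in all 6 libraries, 1 of them at 0 reads, and the list summed to 124 to 157 RPKM in compound mutants and 119 to 149 RPKM in NrasG12D/+ mutants. Of its 9 tested members 6 were above 0 and 3 below, with a median of 0.02. Prtn3, the neutrophil protease proteinase 3, stood at 5.95, 9.27 and 9.09 RPKM against 7.80, 4.46 and 5.76 RPKM (0.44, interval -0.12 to 1.0). Spi1, the myeloid factor PU.1, stood at 13.3, 15.6 and 13.3 RPKM against 8.01, 12.5 and 11.5 RPKM (0.42, interval -0.23 to 1.06). Megakaryocyte genes had 5 of 18 above 0 and a median of -0.13, with Tubb1, a platelet tubulin, at 2.13, 3.56 and 1.81 RPKM against 0.744 RPKM, 0 reads and 2.21 RPKM. Itga2b, the integrin CD41 of platelets, stood at 13.9, 9.32 and 20.5 RPKM against 13.5, 16.9 and 21.1 RPKM (-0.29, -0.88 to 0.30). Erythroid genes had 6 of 14 above 0 and a median of -0.11. Hbb-bt, an adult beta-globin whose reads can be shared with near-identical copies, stood at 0.618, 6.82 and 0.0612 RPKM against 9.68, 12.9 and 4.93 RPKM (-3.74, -6.63 to -0.85), and Tfrc, the transferrin receptor, at 7.46, 4.78 and 5.41 RPKM against 4.65, 3.37 and 4.04 RPKM (0.54, 0.03 to 1.04). These were the 2 of 14 erythroid members with an unadjusted p under 0.05, beside 3.98% of all genes, and they differed in opposite directions.

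Lymphoid priming genes had 3 of 10 above 0 and a median of -0.14. Cd79b, of the B cell receptor, stood at 3.70, 4.02 and 2.74 RPKM in compound mutants against 7.91, 6.72 and 4.8 RPKM in NrasG12D/+ mutants (-0.88, interval -1.62 to -0.15), and Notch1, the receptor of T cell commitment, had -0.32 (-0.93 to 0.30). Mature B, T and NK markers had 2 tested of 9 in the table and mast cell, basophil and eosinophil markers 3 of 4. Prg2, the eosinophil major basic protein, stood at 2.72, 3.36 and 56.6 RPKM against 0 reads in NrasG12D/+ libraries 1 and 2 and 0.928 RPKM in library 3, so compound library 3 alone carried most of it. Prg2 reached the minimum of 1 RPKM only in compound libraries and so entered the test through that genotype, which makes its values a description. The 2 other tested members lay lower: Cpa3, a mast cell protease, had 0 reads in compound libraries 1 and 2 and 2.77 RPKM in library 3 against 1.16, 3.04 and 0.525 RPKM, and Gata2, a factor that HSCs also need, had -0.18 (-0.48 to 0.13). Stroma and endothelium markers, with 5 tested, summed to 48.0 to 51.5 RPKM against 41.8 to 50.5 RPKM, mostly Tie1 and Eng, which HSCs also express. The part of other cells in any difference was not tested.

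Cytokine receptors had 17 of 29 above 0 and a median of 0.07. Ifnar1, a chain of the type I interferon receptor, had 0.44 (interval -0.01 to 0.89), and Csf2rb, the shared beta chain of the GM-CSF receptor, -0.36 (-0.83 to 0.10). Il6ra, the interleukin-6 receptor, stood at 2.07, 2.05 and 1.77 RPKM in compound mutants against 3.40, 3.06 and 2.34 RPKM in NrasG12D/+ mutants (-0.57, interval -1.23 to 0.09). Downstream, JAK, STAT and SOCS genes had 9 of 28 above 0 and a median of -0.19. Their summed level was 371, 391 and 390 RPKM in compound mutants against 399.7, 412.8 and 410.5 RPKM in NrasG12D/+ mutants, without overlap but with a narrow gap. Sums of 33 lists were computed, and an exact test of 3 against 3 libraries cannot go below 0.1, so this lack of overlap is a description. Bcl2l1, the survival gene Bcl-xL and a Stat5 target, stood at 3.20, 2.17 and 2.53 RPKM against 4.46, 3.78 and 3.72 RPKM (-0.61, -1.15 to -0.08). Jak2, a kinase of cytokine receptors, stood at 20.5, 16.2 and 17.3 RPKM against 20.1, 24.2 and 20.1 RPKM (-0.26, -0.55 to 0.03), Stat4 had -0.32 (-0.74 to 0.10), and Stat5a had -0.23 (-0.55 to 0.09). Without the 4 libraries numbered 2 the list median was -0.06.

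Inflammatory and interferon genes did not share a direction. NF-kB and inflammation genes had 11 of 20 above 0 and a median of 0.05, or -0.12 without the 4 libraries numbered 2, and Rela, the p65 subunit, stood at 23, 22.9 and 22.7 RPKM in compound mutants against 33.6, 29.2 and 27.0 RPKM in NrasG12D/+ mutants (-0.38, interval -0.83 to 0.06). Tlr2, a receptor of bacterial lipoproteins, had -1.13 (-2.54 to 0.29). Interferon response genes had 14 of 33 above 0 and a median of -0.05. Xaf1 and Oasl2, both interferon-inducible, stood at 5.18, 6.15 and 5.99 RPKM against 3.34, 4.28 and 3.06 RPKM (0.71, -0.06 to 1.48), and at 8.33, 8.63 and 10.4 RPKM against 7.23, 6.18 and 7.98 RPKM (0.36, -0.02 to 0.74). Antigen presentation genes had 8 of 25 above 0 and a median of -0.06. Of the 33 interferon genes, 0 had an unadjusted p under 0.05 by limma, beside 3.98% of all genes, a share that amounts to few genes in a list of this size. The list leaves out Gbp2b, which was higher, and Gbp4 and Gbp9, which were lower. Their unadjusted p by limma was 0.000494, 0.0300 and 0.0213. Gbp6, Gbp8 and Gbp10, on chromosome 5 with Gbp4 and Gbp9, had groups that overlapped.

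Among 15 survival genes of the Bcl2 family, 6 were above 0 and 4 had an unadjusted p under 0.05, beside 3.98% of all genes, and these were divided in direction. Bid, which links death receptors to mitochondria, stood at 4.11, 7.0 and 6.99 RPKM in compound mutants against 3.32, 2.17 and 3.74 RPKM in NrasG12D/+ mutants (0.97, interval 0.10 to 1.83), and Bcl2l12 had 0.98 (0.13 to 1.84). Bbc3, the p53 target Puma, stood at 1.55, 0.866 and 2.12 RPKM against 2.51, 2.07 and 3.75 RPKM (-0.92, -1.80 to -0.05). Over all 20 p53 targets tested, 13 were above 0 and the median was 0.06. Unfolded protein and stress response genes had 8 of 26 above 0 and a median of -0.17, beside -0.24 for Tet2+/- minus wild type.

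Metabolic lists were centred near 0, with 1 exception. Glycolysis genes had 8 of 22 above 0 and a median of -0.06, nuclear genes of oxidative phosphorylation 15 of 39 and -0.08, cholesterol genes 9 of 20 and -0.03, and MYC and ribosome biogenesis genes 14 of 26 and 0.02. Cytosolic ribosomal protein genes had 16 of 44 above 0 and a median of -0.04, and 38 of the 44 had an interval within -1 and 1. The 13 mitochondrially encoded genes had 2 above 0 and a median of -0.28, while the median for Tet2+/- minus wild type was 0.31 with 13 above 0. Their sum was 2011, 2108 and 2607 RPKM in compound mutants and 2226, 1980 and 3447 RPKM in NrasG12D/+ mutants, with overlap and NrasG12D/+ library 3 the highest. In Tet2+/- mutants the sum was 2737, 2952 and 3366 RPKM and in wild type 1776, 3058 and 2926 RPKM, with overlap and wild-type library 1 the lowest. Per the labels' protocols, mitochondrial RNA was removed from the samples, so these levels also carry the yield of that step. Replication-dependent histone genes had 8 of 26 above 0 and a median of -0.13, and adhesion, homing and niche genes 9 of 24 and -0.03.

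**Figure D5:**
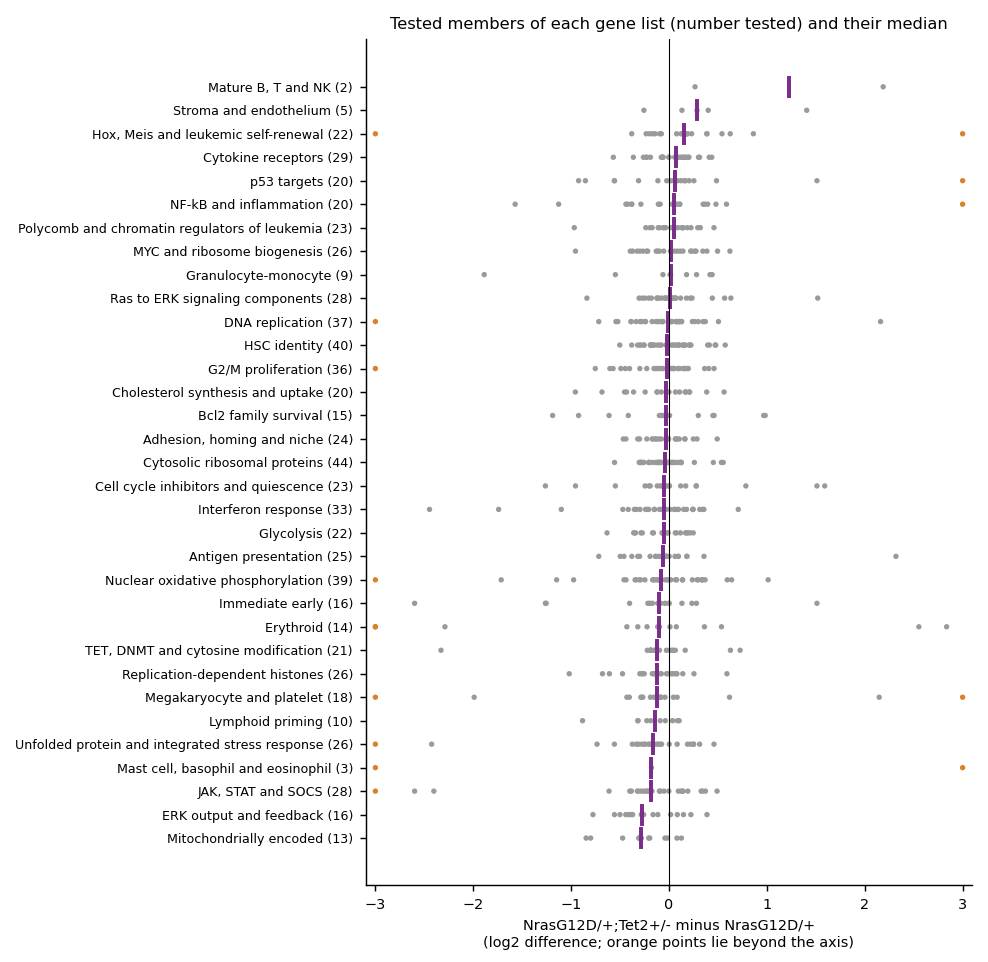
Log2 difference, compound minus NrasG12D/+ mutants, of each tested member (points) of the 33 gene lists, with the list's median (purple bar) and the number tested in brackets. Most medians lie close to 0. The outer ones belong to lists of 2 or 5 tested genes and, on the lower side, to the mitochondrially encoded genes at -0.28 and the Erk output genes at -0.27.

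Position near the targeted loci was read last, since both lie on chromosome 3. Of the 36 tested genes that start within 5 Mb of Tet2, 18 were above 0 and 18 below, with a median of -0.01, and 1 had an unadjusted p under 0.05, near the 3.98% of all genes: Elovl6, a fatty acid elongase, at 0.40 ± 0.18. Within 10 Mb, a window that takes in Gbp2b, 30 of 56 were above 0 and the median was 0.03. Of the 56, 3 had an unadjusted p under 0.05 by limma (Gbp2b, Alpk1 and Elovl6, all higher), beside 3.98% of all genes. In 6 every compound library lay above every NrasG12D/+ library and in 2 below, beside 4.33% and 4.40% of all genes. The part of position in these counts was not tested. Alpk1, an innate immune kinase 5.76 Mb from Tet2, had a log2 difference of 0.96 ± 0.34 with groups that did not overlap. Around Nras, an allele that both genotypes carry, 29 of 54 genes within 5 Mb were above 0, with a median of 0.01. Over all 634 tested genes of chromosome 3, 323 were above 0, and 61 had groups that did not overlap, 32 above and 29 below, a share near the 8.74% of all genes.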

How the data were processed

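Total RNA after removal of ribosomal and mitochondrial RNA was sequenced from stranded libraries, per the labels' protocols. The deposited table holds log2 RPKM for 18546 genes by symbol in 12 libraries, with no header on scaling. CASAVA 1.8.2, TopHat2, edgeR and the mm10 build are named in the submitters' processing notes, with no role stated, and the strand setting of the counting is not given in the sources used here. The deposited values gave whole reads recovered for 100% of genes, to 0.001 reads with a prior of 0.25 reads. Those reads give the depth. The precision they allow covers counting error only, and no molecular identifiers are mentioned.

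limma 3.58.1 (R 4.3.3) was run on the deposited log2 values with 1 mean per genotype over 12 libraries, 8 residual degrees of freedom, with a variance trend. Tests were two-sided, at a false discovery rate of 0.05 (Benjamini-Hochberg over all genes). An exact test of 3 against 3 libraries cannot go below 0.1. Genes had to reach log2 RPKM of 0 in at least 3 of the 6 compound and NrasG12D/+ libraries. Values are given per library, differences ± SE or with 95% intervals. The fit was tested on simulated data. Members, gene lists and naming rules were chosen with earlier results of these data known. The rule named Nras, Tet2, up to 12 genes per direction, 5 per direction of the interaction and 2 to 4 members of smallest p in a list (1 in some, and counts alone for several metabolic, stress and other lists), leaving out clone names, pseudogenes and small RNAs. One of the 12 lower genes and the first-ranked member of 1 list are not reported here. Genes named outside that rule (Elovl6, Alpk1, Gbp2, Gbp3, Gbp4, Gbp5, Gbp6, Gbp7, Gbp8, Gbp9, Gbp10, Fos, Endog) were picked once values were known. Coordinates are from GENCODE M21 on mm10, in which 17263 symbols matched 1 gene. Alternatives varied the filter, pseudocount, scaling, libraries, replicate block, weights, variance trend and test (voom on recovered reads), and left out each library in turn.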

Additional observations from a re-analysis of the deposited data

Results flagged for a closer look

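1600002K03Rik was the 1 gene whose difference with the Tet2 allele differed between the 2 backgrounds by the test of that difference itself, with an interaction of -8.47 ± 0.85 on the log2 scale (adjusted p = 0.0219 by limma). The call did not hold under several alternatives: the smallest adjusted p of any gene was 0.0756 with log2(RPKM + 0.5), 0.617 with quantile normalization, 0.194 with a replicate block over all 12 libraries and 0.946 with voom, and it ran from 6.42e-05 to 0.205 with each library left out. It had 49, 79 and 76 reads in compound mutants against 117, 149 and 107 in NrasG12D/+ mutants, and 125, 21 and 61 reads in Tet2+/- mutants against 0 in all 3 wild-type libraries. In RPKM, compound mutants stood at 3.43, 3.45 and 3.86 and NrasG12D/+ mutants at 5.79, 7.52 and 4.35. The compound difference alone was -0.68 ± 0.60. Tet2+/- minus wild type was 7.78 ± 0.60 (adjusted p = 0.00186 by limma), the 1 call on the wild-type background. Both that call and the size of the interaction thus rest on the same 3 wild-type libraries. Because these are at 0 reads, both fitted values depend on the prior count and are no bound.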

How the results depend on the processing

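For compound minus NrasG12D/+ mutants, where 0 genes passed, the count was 2 in a fit on the 6 libraries alone and 2 without a variance trend. It ran from 0 to 10 with each of the 12 libraries left out, the highest without NrasG12D/+ replicate 3. It stayed at 0 under no minimum on RPKM, the 2 other filters, log2(RPKM + 0.5), median-centred or quantile-normalized libraries, quality weights and voom. Tet2+/- minus wild type, with 1 gene past, had 0 with log2(RPKM + 0.5), quantile normalization, voom, only its own 6 libraries, and those libraries with a replicate block, and 2 without a variance trend. It had 13 without the 4 libraries numbered 2, a setting chosen after seeing the data, and 1 to 15 with each library left out, the highest without wild-type replicate 2. The interaction, with 1 gene past, had 2 with no minimum, with the filter over all 12 libraries and with quality weights. It had 0 with log2(RPKM + 0.5), quantile normalization, voom and a replicate block over all 12 libraries, 3 without a variance trend, and 0 to 6 with each library left out, the highest when wild-type replicate 2 was left out, and again for compound replicate 3. The cause of these moves was not tested.

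In the labels, same-numbered compound and NrasG12D/+ libraries share only a number. By their Xist levels, library 1 was male and libraries 2 and 3 were female in both genotypes, and libraries numbered 2 shared high immediate early genes. Over all genes tested, deviations of same-numbered libraries from the genotype means correlated at -0.01, 0.04 and 0.12. With the replicate block, compound minus NrasG12D/+ kept 0 genes past, with 570 at an unadjusted p under 0.05 over 12 libraries. Of 648 recomputed values of named genes, 646 kept their direction and side of the threshold. The Nras difference ran from -0.0103 without NrasG12D/+ replicate 2 to 0.257 without compound replicate 2, and Gbp2b passed without wild-type replicate 2. Of 825 recomputed list medians, 36 in 15 lists moved by more than the spread between libraries. The median near Tet2 was -0.095 within 2 Mb and 0.034 within 10 Mb. Class limits for promoter CpG were not run, since that check was void. Genes under 4 RPKM had the widest intervals, most of which exceed a log2 difference of 1, and how much of that width is counting error was not tested.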
